A study of Mus musculus with 6 samples.

Results

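The 10 genes described here encode Toll-like receptors (Tlr2, Tlr3, Tlr4, Tlr6), the helpers that hand lipopolysaccharide to Tlr4 (Cd14, Lbp) and interleukin-1 (IL-1) family receptors (Il1r1, Il1rap, Il1rl1, Sigirr). They were taken by mouse symbol from the 41388 genes counted in each of 6 RNA-seq libraries, and 9 of the 10 passed the filter on low counts, as did 12339 of all genes. All libraries came from KP2, a pancreatic cancer line from a KPC mouse on the C57BL/6J strain, kept below 10 passages after it was made and grown in DMEM with 10% FBS. The 3 groups of 2 libraries were wild type, IRAK4 KO, made by infection with plentiCRISPR vectors that carry guide RNAs against IRAK4, and IRAK4 KO + rescue. What the rescue cells received, whether the wild-type cells carried a vector, and whether the KO cells were a clone or a pool is not in the labels, which also name no receptor ligand added to the cultures. Nor do they tie the 2 libraries of a group to separate cultures. The p-values thus cover a spread between libraries that may be only technical.

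Toll-like and IL-1 receptors share an inner TIR domain. On binding of ligand most of them gather the adaptor MYD88, which brings in the kinase IRAK4, and the signal runs on to NF-kB. TLR3, the receptor for double-stranded RNA in endosomes, is the exception among the Toll-like receptors. It signals through the adaptor TRIF (gene Ticam1) instead of MYD88 and towards interferon genes. In epithelial and tumour cells these receptors are known to answer microbial products, molecules released by dying cells, and cytokines of the IL-1 family. The comparisons asked whether loss of a kinase downstream of the receptors, and its return, came with other levels of the receptor transcripts themselves.

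Sequence upstream of a RefSeq start is shown for 3 receptor genes that passed the test in the KO, so that the text around each start can be read beside the values below. The windows are the 250 bases before each start in RefSeq (GRCm38.p6), and 6 of the 10 genes matched 9 windows. The other 4 are Cd14, Lbp, Sigirr and Tlr4. Bases in an exon of the GENCODE M21 annotation were left out, which removed 178 bases for Tlr3, whose GENCODE first exons lie upstream of the RefSeq start, and 2 bases at the second Il1rl1 start. Capitals mark a match to a motif searched on both strands: the interferon regulatory factor (IRF) motif AANNGAAA, the overlapping longer interferon response motif GAAANNGAAA, the STAT motif TTCNNNGAA and the NF-kB motif. Il1rl1 is shown from both of its starts, the first far upstream and the second inside the gene. The Tlr3 stretch also lies inside the gene as counted, which starts at base 45410608 on the minus strand. It is thus not sequence before that start. The Il1r1 window shown lies inside its gene as well.

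Tlr3, chr8:45410381-45410452, minus strand: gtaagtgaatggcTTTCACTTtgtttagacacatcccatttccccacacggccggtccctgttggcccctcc
Il1rl1 first start, chr1:40429320-40429569, plus strand: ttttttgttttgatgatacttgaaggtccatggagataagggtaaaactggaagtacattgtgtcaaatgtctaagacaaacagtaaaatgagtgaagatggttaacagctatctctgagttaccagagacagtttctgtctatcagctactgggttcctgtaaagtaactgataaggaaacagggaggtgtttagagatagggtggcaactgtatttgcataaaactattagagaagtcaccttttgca
Il1rl1 second start, chr1:40439379-40439626, plus strand: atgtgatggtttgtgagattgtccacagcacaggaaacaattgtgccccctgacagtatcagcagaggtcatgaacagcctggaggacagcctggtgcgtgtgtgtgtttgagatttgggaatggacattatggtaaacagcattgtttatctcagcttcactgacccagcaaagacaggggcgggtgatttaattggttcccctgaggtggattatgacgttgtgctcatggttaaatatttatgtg
Il1r1 second start, chr1:40266336-40266585, plus strand: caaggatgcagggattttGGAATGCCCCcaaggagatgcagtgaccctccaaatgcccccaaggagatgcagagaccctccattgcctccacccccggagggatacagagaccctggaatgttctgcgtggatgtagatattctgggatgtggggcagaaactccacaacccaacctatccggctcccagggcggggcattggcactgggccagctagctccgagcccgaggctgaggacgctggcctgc

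The Tlr3 stretch held 1 match to the IRF motif, on the strand opposite the gene, at bases -59 to -52 counted back from the RefSeq start and within the gene as counted. Of 32851 whole windows of 250 bases, 21.31% held such a match, a share for a longer stretch than the 72 bases shown. The part of the Tlr3 window that was left out held an NF-kB match at bases -211 to -202. The Il1r1 window held an NF-kB match at bases -232 to -223, as 7.25% of all windows did. Neither Il1rl1 window held a match to the 4 motifs. Among the windows not shown, Tlr2 had 2 IRF matches and 3 overlapping NF-kB matches, and the first of the Tlr6 windows had 4 IRF matches and 2 of the longer interferon motif, which 2.98% of all windows held. The first Il1r1 window, the second Tlr6 window and the Il1rap window had none. A match describes these letters and is not a binding site.

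The libraries held 7605328 to 11505983 counts. Irak4, the targeted gene, had 37.9 and 37.6 normalised CPM (counts scaled by a TMM-adjusted library size) in the wild-type libraries, 20.4 and 21.8 after the knockout, and 492 and 211 after the rescue. The KO difference had a log2 fold change of -0.84 that did not pass (edgeR quasi-likelihood test, adjusted p = 0.057). A mutation made by a guide need not lower the mRNA, so this is a limited check of the labels. Of the ductal keratins, Krt8 and Krt18 were at 1098 CPM or more in every library, while Epcam had 1 count in all libraries together, and summed over 9 ductal tumour markers the libraries held 6745 to 7056 CPM (wild type), 3911 to 4014 (KO) and 4783 to 5643 (rescue). Of the 8 tested markers 7 fell in the KO, where 23.5% of all genes were called lower. In the rescue against wild type 6 were lower, where 12.0% were. The log2 fold changes were -0.89 for Krt18 and -0.95 for Krt19 in the KO. Against wild type the rescue had Krt7 at -4.74, Cdh1 at -1.66 and Muc1 at -1.62. From KO to rescue 3 rose and 3 fell. Immune cell markers summed to between 4.04 and 5.20 CPM in every library. Most of it was Cd68, and Adgre1, Lyz2, Cd3e, Laptm5 and Cd52 had 0 counts throughout, so Cd14 and the Toll-like receptors were read in libraries with next to no leukocyte transcripts. Endothelial markers summed to 4.63 to 5.47 CPM (wild type), 16.0 to 30.9 (KO) and 14.9 to 38.2 (rescue). Most of that sum was Cdh5, while Pecam1 had at most 2 counts. Kdr went the other way, from 13 and 17 counts in wild type to 1 and 1 in the KO (log2 fold change -3.88, adjusted p = 9.4e-04), and the part of these markers in the results was not tested. The fibroblast sum was 12.5 to 13.2, 8.82 to 13.8 and 17.0 to 22.5 CPM in the same order, mostly Col1a1, with Dcn and Lum at 0.

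Levels were first set in order per gene length, by the RPKM that the authors deposited. This order depends on the listed length, which was 11360 bases for Il1rap, 6894 for Il1rl1 and 3013 for Tlr2. Without it Il1rap stood above Tlr2 in wild type, at 8.48 ± 0.94 against 3.55 ± 0.65 CPM. Whether the listed lengths match the transcripts made in these cells was not tested. In wild type Sigirr, an inhibitory receptor of the IL-1 family, stood highest at 64.5 ± 2.49 RPKM (SD, n = 2), above 94.3% of the tested genes. Cd14 followed at 43.4 ± 6.07, and then Lbp at 18.7 ± 0.58, Il1r1 at 14.3 ± 0.25, Tlr4 at 7.13 ± 0.68 and Tlr3 at 3.29 ± 0.13. The 4 lowest were Tlr2 at 1.13 ± 0.22, Il1rap at 0.71 ± 0.07, Il1rl1 at 0.52 ± 0.02 and Tlr6 at 0.38 ± 0.08 RPKM. In wild type no library of one gene overlapped those of the next in this order. In the KO Lbp went from place 3 to place 9 at 0.46 ± 0.01 RPKM, from above 73.7% of the tested genes to above 6.0%. Tlr3 at 9.30 ± 1.10 and Tlr4 at 9.22 ± 0.36 then overlapped, and Il1rl1 at 1.38 ± 0.01 stood above Il1rap at 0.57 ± 0.02. The rescue had the order of the KO, with Tlr3 and Tlr4 overlapping again, and also Il1rl1 (1.09 and 0.52 RPKM) and Il1rap (0.65 and 0.66).

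**Figure D1:**
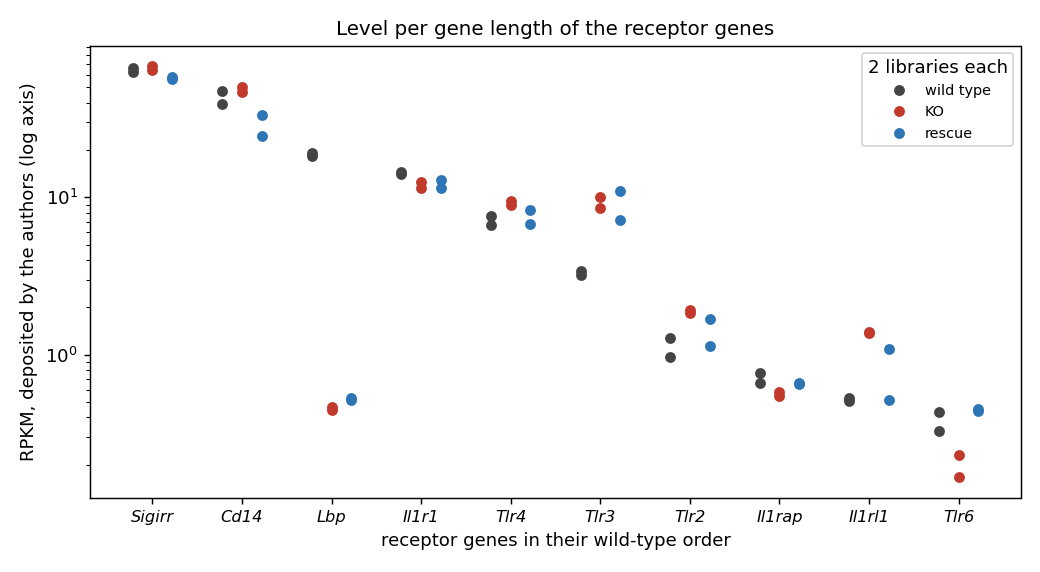
RPKM deposited by the authors for the 10 receptor genes (log axis), in the order of their wild-type means, with 1 point for each library of wild type, KO and rescue. Lbp drops from 18.7 in wild type to 0.46 in the KO and 0.52 in the rescue, and Tlr3 moves up to the level of Tlr4.

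Against wild type, 2 of the 9 tested receptor genes rose in the KO (Tlr3 and Il1rl1) and 2 fell (Lbp and Il1r1), where 46.8% of all tested genes were called, 23.2% higher and 23.5% lower. The share of receptor genes called, 4 of 9, was close to that background. Their median log2 fold change was 0.02, and that of all tested genes 0.01. Between rescue and KO 1 of 9, Cd14, fell, where 14.2% of all tested genes were called, 8.35% higher and 5.88% lower. None rose by edgeR's quasi-likelihood test or by DESeq2, and the count with an unadjusted p under 0.05 was also 0. The median was -0.14 against 0.00 over all genes. In the rescue against wild type Tlr3 rose, while Lbp, Cd14 and Il1r1 fell, where 22.2% of all genes were called, 10.2% higher and 12.0% lower. The medians there were -0.18 and 0.01. The comparisons share libraries, so their counts are not independent. With only the libraries of the KO and wild type in the fit, 4 receptor genes were called higher, Tlr2 (adjusted p = 0.047) and Tlr4 (adjusted p = 0.045) among them.

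**Figure D2:**
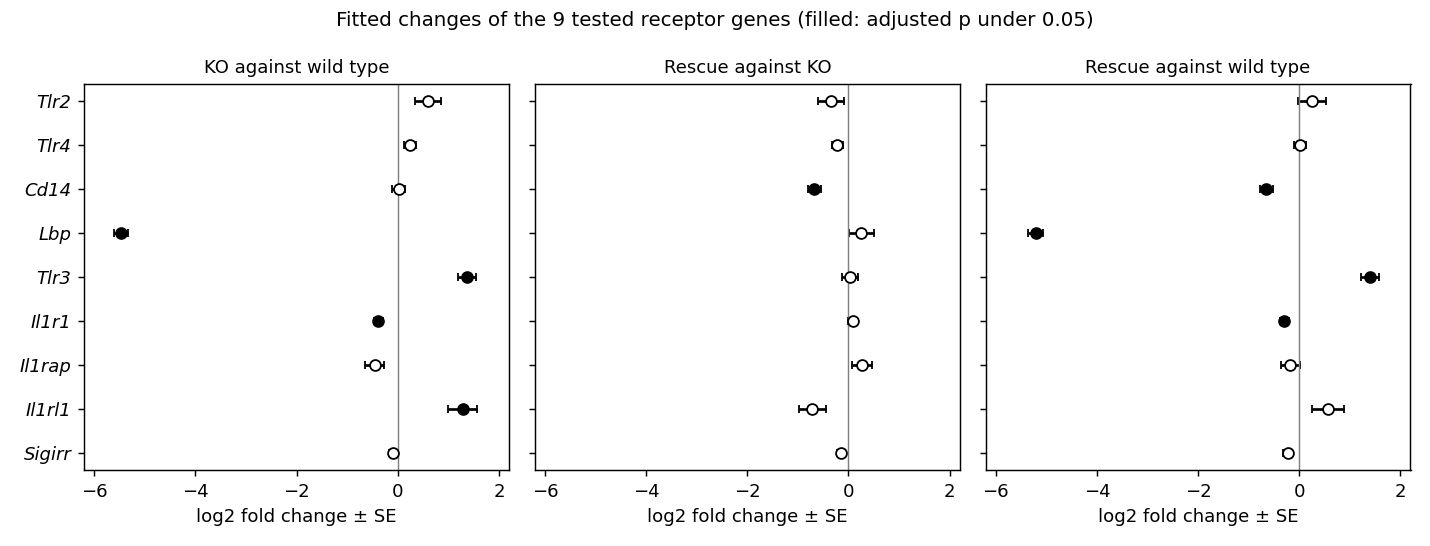
Fitted log2 fold changes with their standard errors for the 9 tested receptor genes in the 3 comparisons, filled where the adjusted p is under 0.05. Lbp lies near -5.5 and -5.2 against wild type and Tlr3 near 1.4 in both, while Cd14 alone is filled between rescue and KO.

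The largest change among the receptor genes was in Lbp (ENSMUSG00000016024, GRCm38 chromosome 2, 158306493 to 158332852). It encodes the lipopolysaccharide-binding protein, a secreted carrier made mostly by liver and by some epithelia. Wild-type libraries had 783 and 978 Lbp counts, or 93.0 and 95.6 CPM. The KO libraries had 26 and 18 counts (2.17 and 2.06 CPM) and the rescue libraries 20 and 19 (2.54 and 2.53 CPM). Both KO and both rescue libraries thus lay far below wild type and close to one another. Lbp was 44.1-fold lower in the KO (log2 fold change -5.46, SE 0.14, adjusted p = 1.5e-09) and 37.0-fold lower in the rescue (-5.21, SE 0.14, adjusted p = 2.6e-09). Between rescue and KO the difference was 0.25 (95% interval -0.30 to 0.80), although Irak4 was above its wild-type level in both rescue libraries. Without any 1 library the KO fold change stayed between -5.51 and -5.43.

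Other acute phase genes, the class of plasma proteins to which Lbp belongs, were mostly absent. Of 18 listed, 4 were tested, 5 had no counts at all and 9 had at most 16 counts in a library. Among the tested 4, Cp (ceruloplasmin) had 433.7 ± 12.9 CPM in wild-type cells, 32.0 ± 6.07 in KO cells and 17.2 ± 1.24 after rescue. C3, the central complement component, fell from 30.7 ± 1.39 to 3.61 ± 2.03 CPM and was at 1.12 ± 0.87 in the rescue, and Lcn2, an iron carrier that binds bacterial siderophores, fell from 36.6 ± 4.60 to 7.69 ± 4.85 CPM and was at 2.73 ± 0.09 in the rescue. The KO log2 fold changes were -3.77 for Cp, -3.16 for C3 and -2.32 for Lcn2. All 3 passed in both comparisons with wild type. From KO to rescue Cp and Lcn2 fell further, by 0.88 (adjusted p = 0.004) and 1.42 (adjusted p = 0.047) on the log2 scale, which Lbp did not. The fourth, Orm3, named after its value was seen, rose in the KO by 1.39. Cp shares exon bases with Hps3 on the other strand, and the strand setting of the counting is not given in the sources used here. Reads in the shared bases thus cannot be told apart. Hps3 itself was counted at 17.7 to 32.9 CPM across the libraries.

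Cd14, the surface and soluble protein that passes lipopolysaccharide from LBP to TLR4, moved in the rescue. Wild-type libraries held 64.8 and 77.8 CPM, KO libraries 70.1 and 75.3, and rescue libraries 52.1 and 38.9. The KO and wild-type libraries overlapped, and both rescue libraries lay below all others. The KO log2 fold change was 0.02 (95% interval -0.26 to 0.30). With the rescue Cd14 fell by 0.67 against the KO (SE 0.13, adjusted p = 0.010) and by 0.65 against wild type (SE 0.14, adjusted p = 0.006). The first of these did not pass without the second KO library (log2 fold change -0.63, adjusted p = 0.089), and the second did not pass without the second wild-type library (-0.51, adjusted p = 0.080).

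Tlr4 (ENSMUSG00000039005, chromosome 4, 66827584 to 66930284), the lipopolysaccharide receptor, differed little between groups. Its wild-type libraries had 38.9 and 43.9 CPM, its KO libraries 47.9 and 50.2, and its rescue libraries 46.0 and 38.1. Both KO libraries lay above both wild-type ones, and the rescue libraries spread across the wild-type range. The log2 fold changes were 0.24 in the KO (95% interval -0.004 to 0.48, adjusted p = 0.098) and 0.02 in the rescue against wild type (-0.23 to 0.27). The KO value passed without the first (0.23, adjusted p = 0.045) or the second (0.24, adjusted p = 0.040) rescue library, and Tlr4 was lower in the rescue than in the KO without the first rescue library (-0.36, adjusted p = 0.032). Ly96, which encodes MD-2, the part of the TLR4 complex that holds lipopolysaccharide, was low at 4.30 ± 1.09 RPKM (wild type), 3.34 ± 0.27 (KO) and 2.6 ± 0.32 (rescue), and passed no test.

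Tlr2, a receptor for bacterial lipopeptides, had 3.09 and 4.01 CPM in wild-type libraries, 5.35 and 5.50 in KO libraries, and 5.07 and 3.46 in rescue libraries. Both KO libraries were the highest of the 6, and the rescue libraries overlapped wild type. The KO log2 fold change of 0.60 (SE 0.26) did not pass (adjusted p = 0.078). Tlr6 and Tlr1 are the partners with which TLR2 binds lipopeptides. Tlr6 had 10 and 9 counts in wild-type libraries, 5 and 5 with the knockout and 9 and 9 with the rescue, too few to be tested, and Tlr1 had at most 3. Because Tlr1 and Tlr6 are neighbouring genes with stretches of near-identical sequence, the split of their reads is uncertain.

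The other receptors of both families were nearly silent. Of 18 listed, 2 were tested (Ly96 and Il18rap), Tlr5, Tlr8, Tlr12, Ly86 and Il18r1 had 0 counts in all libraries, and the other 11 had at most 3 counts in any library. A count of 0 allows up to 0.26 to 0.39 CPM in these libraries, and this limit covers counting error only. The Toll-like receptors that could be tested in KP2 were therefore Tlr2, Tlr3 and Tlr4.

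**Figure D3:**
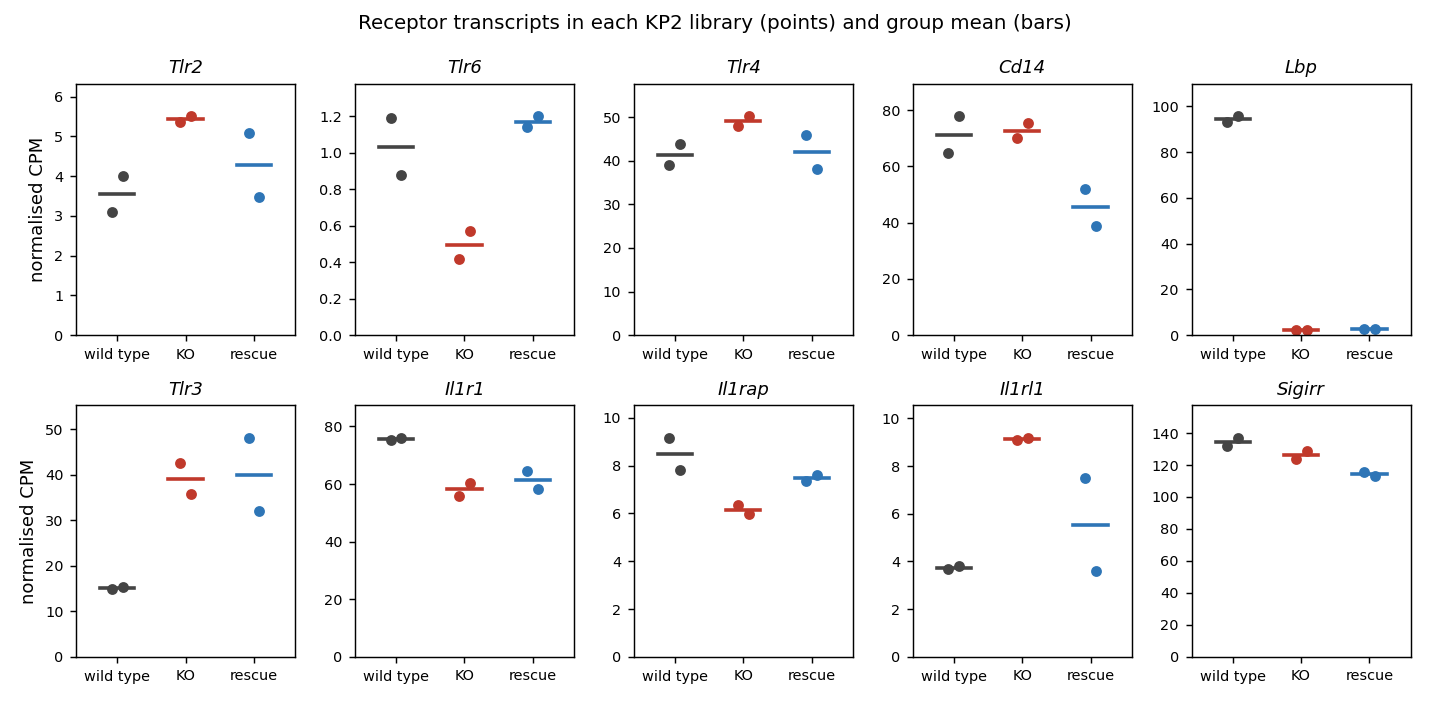
Normalised CPM of the 10 receptor genes in each library (points) with the mean of each group (bars), on axes that start at 0. Lbp is high only in the 2 wild-type libraries (93.0 and 95.6), Tlr3 is higher in KO and rescue, and for Il1rl1 the rescue libraries are split at 7.48 and 3.6.

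Tlr3 (ENSMUSG00000031639, chromosome 8, 45395665 to 45410608) was higher in the KO than in wild type and stayed high in the rescue. Tlr3 was at 14.8 and 15.4 CPM in the wild-type libraries, at 42.6 and 35.8 in the KO libraries and at 48.1 and 32.0 in the rescue libraries. All KO and rescue libraries were at 32.0 CPM or more and above both wild-type libraries, and the rescue libraries enclosed those of the KO. The gene was 2.6-fold higher in the KO (log2 fold change 1.38, SE 0.18, adjusted p = 1.1e-04) and 2.64-fold higher in the rescue (1.40, SE 0.18, adjusted p = 2.8e-04), both against wild type. The rescue differed from the KO by 0.03 (95% interval -0.33 to 0.38), and the sign of that small value turned without the second KO library (-0.09) or the first rescue library (-0.30). GENCODE places an antisense transcript, Gm45542, over Tlr3 exons. It was not analysed here, and its reads over those exons, if any, cannot be told apart from those of Tlr3.

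Cytoplasmic sensors and effectors of double-stranded RNA, which detect the same ligand outside the endosome, were set beside Tlr3. Of 11 tested, 9 rose in the KO and 9 rose in the rescue against wild type, with medians of 1.24 and 2.07 on the log2 scale, where 23.2% and 10.2% of all genes were called higher. This list was drawn up with earlier results of these data known, so its direction is not independent evidence. Oas3, an oligoadenylate synthetase, went from 23.2 ± 0.39 CPM to 87.9 ± 9.92 and 172.5 ± 9.55 in wild type, KO and rescue, Oas2 from 13.2 ± 0.91 to 48.8 ± 7.78 and 75.4 ± 10.3, and Oasl2 from 23.7 ± 0.29 to 81.0 ± 6.89 and 129 ± 10.4. From KO to rescue 8 of the 11 rose, where 8.35% of all genes were called higher and Tlr3 did not pass. One of the 8, Oasl1, named after its value was seen, had not risen in the KO (log2 fold change -0.31, adjusted p = 0.098). The Oas genes are related to one another, and how any reads that they share were assigned is not known.

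Downstream of TLR3, Ticam1 itself had log2 fold changes of -0.18 in the KO (adjusted p = 0.268) and 0.04 in the rescue against wild type (adjusted p = 0.872). Of 9 tested genes of the TRIF branch 3 rose and 2 fell in the KO, near the 46.8% called among all genes. Irf7, an interferon-induced transcription factor, rose from 15.4 ± 1.4 to 42.5 ± 0.10 CPM and to 69.0 ± 4.22 in the rescue, with log2 fold changes against wild type of 1.46 (adjusted p = 3.3e-06) and 2.16 (adjusted p = 2.1e-07). Fadd, a death-domain adaptor, rose by 0.75 and Tbk1, the kinase of IRF3, named after its value was seen, by 0.23 (adjusted p = 0.048). Casp8 and the kinase gene Ikbke fell by 0.65 and 0.82. Ifnb1, the interferon gene this branch is best known for, had 0 counts in every library. Irf7 shares exon bases with Phrf1 on the other strand, and reads in those bases cannot be told apart.

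Unc93b1, which carries TLR3 and its relatives to endosomes, had at most 2 counts in a library. Of 9 tested chaperone and trafficking genes 2 rose and 2 fell in the KO, again near the share over all genes. Cnpy3, a folding partner of Toll-like receptors, rose from 33.0 ± 0.69 to 56.5 ± 0.14 CPM, and Lrrc59, which overlaps Eme1 on the other strand and is uncertain for that reason, from 275.9 ± 13.9 to 380.8 ± 34.8. Rab11a and Ctsl, the gene of an endosomal protease, fell by 0.35 and 0.42 on the log2 scale, and Ctsl was higher again in the rescue than in the KO by 0.47 (adjusted p = 0.007).

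Il1r1 (ENSMUSG00000026072, chromosome 1, 40225080 to 40316198), the signalling receptor for IL-1, was slightly lower in the KO than in wild type. Wild-type libraries held 75.3 and 75.9 CPM, KO libraries 55.9 and 60.4, and rescue libraries 64.7 and 58.3. Both wild-type libraries stood above the other 4, and KO and rescue overlapped. It was 1.30-fold lower in the KO (log2 fold change -0.38, SE 0.09, adjusted p = 0.005), a call that leaving out the first KO library ended (-0.33, adjusted p = 0.057). In the rescue against wild type the value was -0.30 (SE 0.09, adjusted p = 0.039). That call was lost with DESeq2 (adjusted p = 0.124), with no filter (adjusted p = 0.051), when the KO was left out of the fit (adjusted p = 0.052) and under a replicate block (adjusted p = 0.076). It was also lost without any 1 library except the first of the rescue (adjusted p between 0.057 and 0.174).

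Il1rap, the accessory chain that IL-1 and IL-33 receptors share, had 9.14 and 7.82 CPM (wild type), 6.35 and 5.96 (KO), and 7.36 and 7.59 (rescue). The groups did not overlap, with wild type highest and the KO lowest, but no difference passed: the KO log2 fold change was -0.45 (SE 0.19, adjusted p = 0.070) and the rescue value against wild type -0.18 (95% interval -0.60 to 0.24). Sigirr, which restrains IL-1 and Toll-like signalling, had 131.7 and 136.8, 123.7 and 128.9, and 115.7 and 113.3 CPM in wild type, KO and rescue. These groups did not overlap either, and again no difference passed. How many of all tested genes had groups that stood apart in this way was not counted. The Sigirr log2 fold changes were -0.09 in the KO (95% interval -0.26 to 0.09) and -0.23 in the rescue against wild type (SE 0.08, adjusted p = 0.063).

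The ligands of Il1r1 were scarce in these cells. Il1a had 3 and 10 wild-type counts and at most 2 in any other library, and Il1b had 1 count in all libraries together. Il1rn, the antagonist that occupies the receptor without a signal, was abundant at 176 and 204.6 CPM (wild type), 287.0 and 379 (KO), and 164.1 and 99.2 (rescue). It rose in the KO by 0.81 (adjusted p = 0.005) and fell in the rescue against the KO by 1.34 (adjusted p = 0.003), and the rescue value against wild type was -0.53 (adjusted p = 0.072). Both KO libraries were above all others for Il1rn.

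Il1rl1 (ENSMUSG00000026069, chromosome 1, 40429570 to 40465415) encodes ST2, the receptor for IL-33. The wild-type libraries had 31 and 39 counts (3.68 and 3.81 CPM), those of the KO 109 and 80 (9.11 and 9.17 CPM) and those of the rescue 59 and 27 (7.48 and 3.6 CPM). Both KO libraries lay above all others. The rescue libraries fell apart, the first near the KO and the second at the wild-type level. Il1rl1 rose 2.43-fold in the KO (log2 fold change 1.28, SE 0.28, adjusted p = 0.003), and this passed without any 1 library. After rescue it passed neither against the KO (-0.71, SE 0.27, adjusted p = 0.101) nor against wild type (0.57, SE 0.31, adjusted p = 0.225). Without the first rescue library the value against the KO was -1.34 (adjusted p = 0.001) and that against wild type -0.07 (adjusted p = 0.929). Without the second rescue library these were -0.29 (adjusted p = 0.569) and 0.99 (adjusted p = 0.008). The first rescue library was also the one with more Irak4, at 492 against 211 CPM. It was higher for Tlr3 (48.1 against 32.0 CPM) and Cd14 (52.1 against 38.9) too, and lower for Il33 (16.7 against 31.0). A link with the Irak4 level was not tested. The gene yields a membrane receptor and a soluble decoy from its separate starts, and counts per gene do not tell them apart.

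Il33, the ligand of Il1rl1 and a nuclear alarmin of epithelial cells, moved the other way in the KO. Wild-type cells had 346 and 320.5 CPM, KO cells 17.5 and 18.9, and rescue cells 16.7 and 31.0. The log2 fold change was -4.20 in the KO (adjusted p = 8.9e-08) and -3.81 in the rescue against wild type (adjusted p = 1.5e-07), and the rescue differed from the KO by 0.39 (adjusted p = 0.241). Per length, Il33 stood at 110.3 ± 4.61 RPKM in wild type where Il1rl1 was at 0.52 ± 0.02, and at 6.58 ± 0.41 in the KO where Il1rl1 was at 1.38 ± 0.01. Of the 4 tested IL-1 family ligands and antagonists, Il33 and Il1rn were the 2 called in the KO.

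Il1r1 and Il1rl1 lie in a run of IL-1 receptor genes on chromosome 1 that spans 466.9 kb, in the order Il1r2, Il1r1, Il1rl2, Il1rl1, Il18r1 and Il18rap. Transcription along this run was discontinuous. Il1r2, the decoy receptor for IL-1, had 2 counts in 1 KO library, Il1rl2, the receptor for IL-36, had 1 count, and Il18r1, the binding chain for IL-18, had none. Il18rap, the second chain of the IL-18 receptor, was at 83.0 and 92.2 CPM (wild type), 39.1 and 42.6 (KO) and 56.2 and 50.6 (rescue). It fell in the KO by 1.10 (SE 0.10, adjusted p = 9.5e-06) and was higher in the rescue than in the KO by 0.39 (adjusted p = 0.030). In the KO the 3 tested genes of the run thus went down (Il1r1, Il18rap) and up (Il1rl1) within the same stretch.

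**Figure D4:**
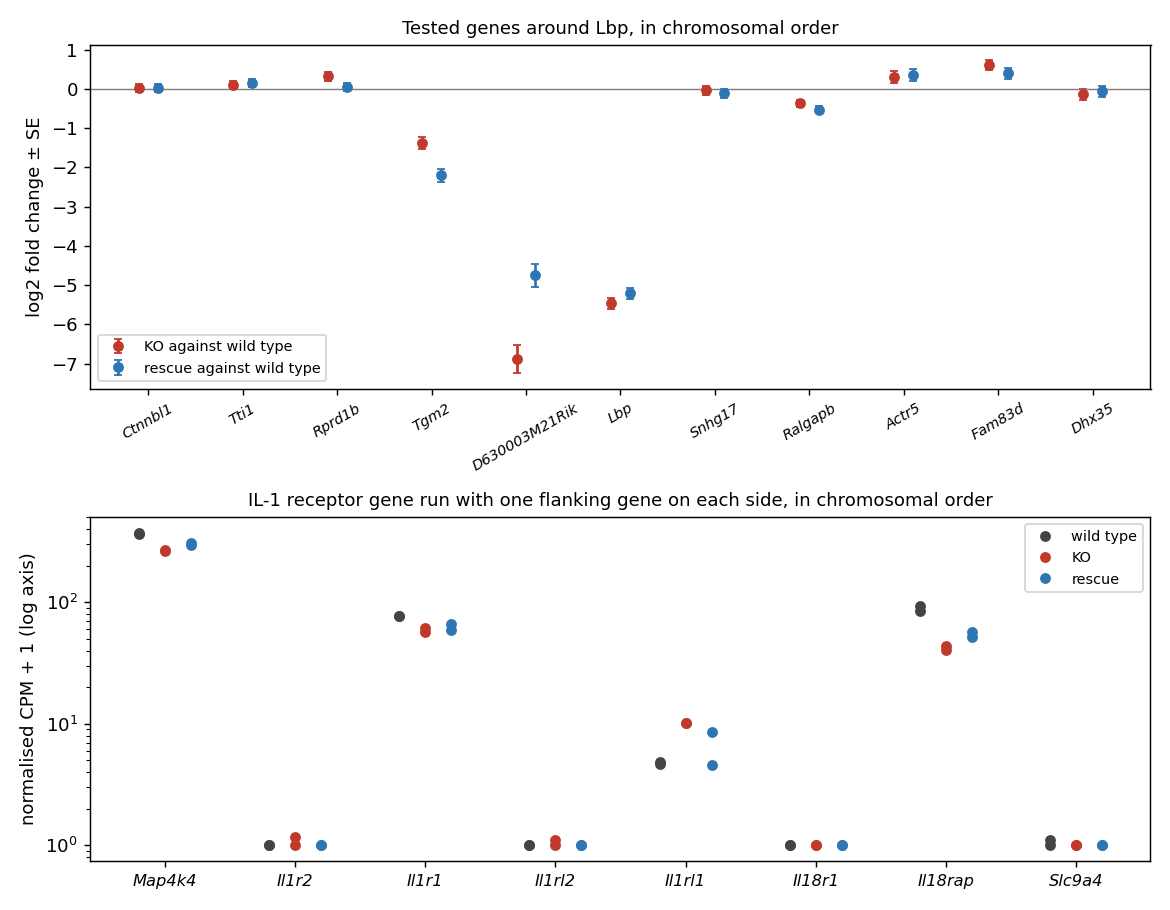
Above, fitted log2 fold changes with standard errors of the 11 tested genes around Lbp in chromosomal order, for KO and rescue against wild type; below, normalised CPM plus 1 (log axis) of the IL-1 receptor genes in chromosomal order, with Map4k4 and Slc9a4 on either side. Tgm2, D630003M21Rik and Lbp are the 3 lowest in the upper panel, and the lower panel shows Il1r2, Il1rl2 and Il18r1 at or near 0 between genes with counts.

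Within 500 kb of Lbp lie 36 other genes, of which 10 were tested. This look at neighbours was chosen after the Lbp values were seen. In the KO 3 of the 10 fell and 2 rose, a share close to the 46.8% called among all tested genes. D630003M21Rik, the nearest tested gene before Lbp, 77.3 kb away, had 240 and 322 wild-type counts, 1 and 4 in KO cells, and 5 and 12 in rescue cells. Its KO log2 fold change was -6.87 (SE 0.36, adjusted p = 2.9e-07). Tgm2, a transglutaminase gene, is the next tested gene on that side and fell from 62.3 ± 0.08 to 24.1 ± 4.17 CPM, to 13.5 ± 4.03 in the rescue. The span of Tgm2 overlaps Rprd1b on the other strand, and that of D630003M21Rik overlaps 1700060C20Rik. Whether they share exon bases was not checked. Snhg17, 20.8 kb on the other side of Lbp, had a KO log2 fold change of -0.04 (adjusted p = 0.811). Bpi, the adjacent relative of Lbp, which neutralises lipopolysaccharide, had at most 3 counts.

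Most of the tested genes just below the receptors were not called. Of 16 adaptor and proximal signalling genes 2 rose and 3 fell in the KO, a smaller share than the 46.8% of all tested genes. Myd88 rose from 11.1 ± 0.44 to 23.2 ± 0.22 CPM (log2 fold change 1.06, adjusted p = 1.2e-04) and was lower in the rescue, at 15.8 ± 1.66 CPM, by 0.55 (adjusted p = 0.022). Irak2, a kinase recruited after IRAK4, rose by 0.42. Peli1, a ubiquitin ligase of the pathway, fell by 0.62, and Traf6 and Tab2, named after their values were seen, fell by 0.33 and 0.24. Ticam2, the bridging adaptor of TLR4, had at most 2 counts, but it shares exons with Tmed7 and its count is uncertain, as are those of Myd88 and Irak4, which overlap Acaa1a and Twf1 on the other strand.

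NF-kB output genes, which these receptors are known to switch on, were lower with no exception among those tested. All 12 fell in the KO, and all 12 were lower in the rescue against wild type, with medians of -1.49 and -1.35 on the log2 scale, where 23.5% and 12.0% of all genes were called lower. Nfkbia, the inhibitor of NF-kB, fell from 140.1 ± 8.48 CPM to 40.8 ± 0.81, and Csf3, a granulocyte growth factor gene, from 33.1 ± 0.23 to 4.04 ± 0.20. From KO to rescue 2 rose and 3 fell. Ptgs2 and Tnfaip3 rose by 0.97 (adjusted p = 0.010) and 0.91 (adjusted p = 0.004), and Ccl2 fell by 0.85 (adjusted p = 0.006), as did Cxcl1 and Bcl3. The list was drawn up with earlier results of these data known, so its direction is not independent evidence.

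Genes for cellular proteins that Toll-like receptors are reported to recognise were called about as often as all tested genes. Of 7 tested, 2 rose and 2 fell in the KO, beside 23.2% and 23.5% of all genes. Fn1, the fibronectin gene, fell from 5059 ± 463 to 1452 ± 7.74 CPM and rose again in the rescue to 3410 ± 953. The rescue was still called lower than wild type for Fn1 (log2 fold change -0.57). Tnc, the tenascin C gene, had 33.9 ± 4.43, 14.6 ± 3.89 and 35.3 ± 22.4 CPM in wild type, KO and rescue and fell by 1.19 in the KO (adjusted p = 0.013). Its rescue libraries lay apart, at 19.4 and 51.1 CPM. Hspd1 and Hspa8, heat shock protein genes, rose by 0.73 and 0.36, and Hspd1 overlaps Hspe1 on the other strand.

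For each tested receptor gene, the 3 genes with the most similar course over the 6 libraries were found by Euclidean distance between log2 CPM values centred on their own mean, among 9966 genes. For Tlr3 these were Irgm1, an interferon-induced GTPase, Neto2 and Parp12, at distances of 0.16, 0.35 and 0.38 (Pearson r 0.996, 0.977 and 0.989 across the 6 libraries, which fall into 3 groups). For Lbp they were Mal, Celsr1 and Prom1, at 0.50, 0.70 and 1.07, all at 1.07 CPM or less in every KO and rescue library. For Il1rl1 they were Helq, Tmem238 and Dna2, at 0.29, 0.31 and 0.32. The nearest were Slc33a1 for Cd14 (0.20), Med7 for Il1r1 (0.04), Bpnt1 for Tlr2 (0.10), Pitpnb for Tlr4 (0.06), Dnajc21 for Il1rap (0.08) and Rab1a for Sigirr (0.05). A gene that moves little has close neighbours by this measure, so distances are not comparable between receptor genes.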

How the data were processed

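RNA-seq counts of 6 libraries were analysed. Per the submitters' processing notes, bcl2fastq, STAR 2.0.4b, Subread, featureCounts 1.45 and GRCm38 were named as the build. The strand setting and the annotation are not stated in these sources. A count, a CPM and an RPKM per gene stand in every deposited file, per the file headers. The deposited CPM was the count over the file's total (largest difference 3.3e-11) and the deposited RPKM that CPM per kilobase of listed length (8.0e-11). Symbols came from GENCODE M21 for 40254 of 41388 identifiers. Coordinates are those of the files.

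Genes were kept by filterByExpr (minimum count 10, total 15), scaled by TMM, and tested by the quasi-likelihood test of edgeR 4.0.16 (R 4.3.3) on all 6 libraries, with 1 mean per group, 3 residual degrees of freedom and Benjamini-Hochberg adjustment over 12339 genes; an adjusted p under 0.05 was called. The standard error is the log2 fold change over the square root of F, and intervals are 95%. The fit was tested on simulated counts. DESeq2 1.42.0, RLE size factors, 2 other filters, a fit of the compared groups, a replicate block and leaving out each library were alternatives. Other genes were named by a rule: up to 3 called genes per list and comparison with the smallest adjusted p, Irak4, Il33, and the 3 nearest courses among genes of at least 5 CPM. The members and lists were chosen with earlier results of these data known. Replicates differed by more than counting error in each group (chi-square per degree of freedom 3.50 for wild type, 4.15 for KO and 8.01 for rescue).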

Additional observations from a re-analysis of the deposited data

How the results depend on the processing

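Results for 39 counts and fold changes were recomputed in 12 other settings each. The KO and rescue calls of Lbp and Tlr3 against wild type, and the KO call of Il1rl1, held in each of them. With only the groups compared, 4 receptor genes were called higher in the KO, with Tlr2 at 0.59 and Tlr4 at 0.23, and the rescue against KO gave 667 genes higher and 377 lower. DESeq2 gave 378 genes lower in the rescue against KO and 751 higher in the rescue against wild type. With no filter, 2 receptor genes were lower in the rescue against KO, Il1rl1 at -0.72 among them. The Il1r1 fold change in the rescue against wild type was -0.31 with DESeq2, -0.30 with no filter, -0.30 with only the groups compared and -0.30 with the replicate block, none of which passed. The cause was not tested.

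Leaving out 1 library gave 1688 to 3297 genes higher in the KO, the fewest when wild-type library 1 was missing. It gave 139 to 1849 higher and 64 to 1596 lower in the rescue against KO, the fewest when KO library 2 and the most when rescue library 1 was missing. In the rescue against wild type it gave 417 to 1699 higher and 691 to 1953 lower, the fewest again when wild-type library 1 was missing. The receptor genes called ranged from 1 to 2 lower in the KO, 0 to 3 lower in the rescue against KO, and 1 to 2 higher and 1 to 3 lower in the rescue against wild type. Fold changes in the KO ranged from 0.16 to 0.33 for Tlr4, -0.10 to 0.16 for Cd14 and -0.44 to -0.33 for Il1r1. Cd14 turned negative when the first wild-type library (-0.10) or the second KO library (-0.03) was left out. In the rescue against KO they ranged from -0.30 to 0.28 for Tlr3, negative without the second KO (-0.09) or the first rescue library (-0.30), -0.36 to -0.090 for Tlr4, -0.90 to -0.48 for Cd14 and -1.34 to -0.29 for Il1rl1. In the rescue against wild type they ranged from -0.054 to 0.50 for Tlr2, -0.13 to 0.15 for Tlr4, -0.89 to -0.46 for Cd14, -0.38 to -0.22 for Il1r1 and -0.067 to 0.99 for Il1rl1. Tlr2 (-0.054), Tlr4 (-0.13) and Il1rl1 (-0.067) were negative without the first rescue library, and Tlr4 (-0.06) also without the first wild-type library.

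The titles number the libraries 1 and 2 in each group, and the labels do not say that a number marks a shared culture or day. Deviations from the group means correlated at 0.037 between wild type and KO, -0.192 between KO and rescue and -0.153 between wild type and rescue, so the numbers were not taken as pairs. The replicate block moved the genes lower in the rescue against KO to 429, and changed 1 receptor call, that of Il1r1 (-0.30) in the rescue against wild type. Changing the scaling moved the median of all genes by less than 0.1 on the log2 scale.

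Low counts limit Tlr6, Il1rl1, Tlr2 and the low state of Lbp.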
